A study of Mus musculus with 4 samples.

Results

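Messenger RNA of 9 genes of lipolytic hormone signalling was followed in adipocyte progenitor cells of male FVB mice aged 4 weeks, taken from subcutaneous fat. The genes are the adrenergic receptors Adrb1, Adrb3 and Adra2a, the natriuretic peptide receptors Npr1 and Npr3, the melanocortin receptor Mc2r, the accessory proteins Mrap and Mrap2, and the kinase subunit Prkar2b. They were picked from the array by symbol, and their choice was made with earlier results of this same contrast in view, so their values below are a description with no test. The array carries 47866 features, of which 24518 were bright enough to be tested, and 6 of the 9 genes were among these. Cells had been sorted by flow cytometry and lysed at once, without culture and without treatment, from wild-type mice (2 arrays) and from mice carrying an Adamts1 transgene (2 arrays). Adamts1 encodes a secreted metalloprotease of the extracellular matrix. Neither the transgene's promoter nor the markers used for sorting are in the labels, which also do not say that the samples of a group came from separate animals, so p-values measure only the spread between these samples.

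Catecholamines, natriuretic peptides and corticotropin are hormones that act on fat cells through receptors on the cell surface. β-adrenergic and melanocortin receptors raise cyclic AMP through the stimulatory G protein, and α2-adrenergic receptors lower it through the inhibitory one. The natriuretic peptide receptor Npr1 raises cyclic GMP, whereas Npr3 is a clearance receptor. Cyclic AMP releases the catalytic subunits of its kinase from regulatory subunits such as the Prkar2b product, and the kinase then acts on lipid droplet proteins and lipases, which is how fat is broken down. Adipocyte progenitors are precursors that have not yet filled with lipid.

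Of the 15 probes for the 9 genes, 3 each measured Mrap2 and Prkar2b, 2 each measured Adrb1 and Adrb3, and the other genes had 1 each. The probes of Mrap2 and Prkar2b are shown because the differences between the groups turned on them. The last 30 of the 60 bases of each are printed 5′ to 3′ as the scanner files give them, with any polyadenylation motif AATAAA in capitals.
Mrap2 probe 1: ttaagttgcatAATAAAtgcatttgatcgc
Mrap2 probe 2: ccatggttttacatgtaaggtggcctgtct
Mrap2 probe 3: ttctagaaaacaagccagtttcccagacat
Prkar2b probe 1: gtattgttggttatatttaaattttcctta
Prkar2b probe 2: tccctagctttaaagtaaactcacagtcaa
Prkar2b probe 3: atggtgtgaaaatcatatgcaattttgaaa
The Mrap2 probes start at bases 2015, 1258 and 782 of one RefSeq transcript, and lie on the plus strand at chr9:87078820-87078879, chr9:87078063-87078122 and chr9:87077587-87077646 of mm9, the build of the array design. The first of them, nearest the 3′ end, holds AATAAA, as do 10.1% of the 55681 probes on the array. The array design lists 2 Ensembl transcripts for the third Mrap2 probe and 1 for each of the others. The Prkar2b probes start at bases 3276, 2612 and 1950 of its transcript, at chr12:32643366-32643425, chr12:32644030-32644089 and chr12:32644692-32644751 of mm9 on the minus strand. Exon and UTR annotation on mm9 was not used here.

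The 250 bases upstream of the start of Mrap2 and of Prkar2b are shown because these genes differed most clearly between the groups, in opposite directions. They come from RefSeq on GRCm38.p6, at chr9:87144056-87144305 on the plus strand for Mrap2 and at chr12:32061278-32061527 on the minus strand for the first of the 2 starts of Prkar2b. Capitals mark matches, on either strand, to the cyclic AMP response element TGACGTCA, to TGACG, which is also its first part, to the CCAAT box, to the GC box GGGCGG and to the E-box CACGTG.
Mrap2 upstream: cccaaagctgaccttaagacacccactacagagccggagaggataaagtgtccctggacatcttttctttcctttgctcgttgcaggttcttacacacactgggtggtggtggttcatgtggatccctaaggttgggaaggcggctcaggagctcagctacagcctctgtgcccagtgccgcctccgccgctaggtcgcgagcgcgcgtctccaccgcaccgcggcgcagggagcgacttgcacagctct
Prkar2b upstream: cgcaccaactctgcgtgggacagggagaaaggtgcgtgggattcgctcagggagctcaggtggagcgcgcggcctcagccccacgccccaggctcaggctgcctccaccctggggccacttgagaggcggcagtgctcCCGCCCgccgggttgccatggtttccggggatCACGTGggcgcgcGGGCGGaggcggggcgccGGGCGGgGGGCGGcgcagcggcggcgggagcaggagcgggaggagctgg
The Mrap2 window held none of these letters. The Prkar2b window held 4 GGGCGG matches, counted over both strands, and 1 CACGTG match, and the window of its second start held none. Of the 32851 promoter windows of this length in the table, 1.5% held TGACGTCA, 17.8% TGACG, 33.8% CCAAT, 32.7% GGGCGG and 6.0% CACGTG. The table has windows for 6 of the 9 genes, and TGACG occurred once in each of the Npr3, Adra2a and Adrb1 windows. These matches describe letters and no binding site.

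Signals are given as log2 of the processed intensity less the 75th percentile of the same array, so that 0 is that percentile and a probe is compared with itself across arrays. The 75th percentile was 239.3 on wild-type array 1 and between 333.5 and 353.9 on the other 3, and the share of spots that cleared the background was 47.0% on wild-type array 1 against 55.5% to 57.0% on the others. Signals of the 2 wild-type arrays correlated with r = 0.984 and those of the 2 transgenic arrays with r = 0.994, across the features tested, which are not independent replicates. Wild-type array 2 correlated as closely with each transgenic array (r = 0.984) as with wild-type array 1, and wild-type array 1 correlated with the transgenic arrays at r = 0.977. Adamts1 itself, the gene of the transgene, read 6.65 and 6.73 on the wild-type and 6.77 and 6.82 on the transgenic arrays, a difference of 0.11 ± 0.09 (SE, limma, adjusted p = 0.573). No rise in Adamts1 passed the test at this probe, and the groups are named by their labels throughout. Markers of adipocyte progenitors were present, with all 10 listed genes tested and none called, and their summed signal was 2905 and 2358 times the 75th percentile on the wild-type arrays and 2369 and 2403 times on the transgenic arrays.

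Calls were made where limma's moderated test, adjusted over all features, gave a p under 0.05. This held for 423 of 24518 features (1.73%), 237 of them higher (0.967%) and 186 lower (0.759%) on the arrays labelled transgenic. Prkar2b was the 1 gene of the 9 called higher and Mrap2 the 1 called lower; these counts are read against those shares as a description only, because the genes were chosen by results of this contrast. In 5 of the 6 genes tested the 2 groups did not overlap, as was so for 53.1% of all features tested. The number of features called rested on single arrays. It was 90 without transgenic array 1, 114 without transgenic array 2, 1295 without wild-type array 1 and 3998 without wild-type array 2.

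**Figure D1:**
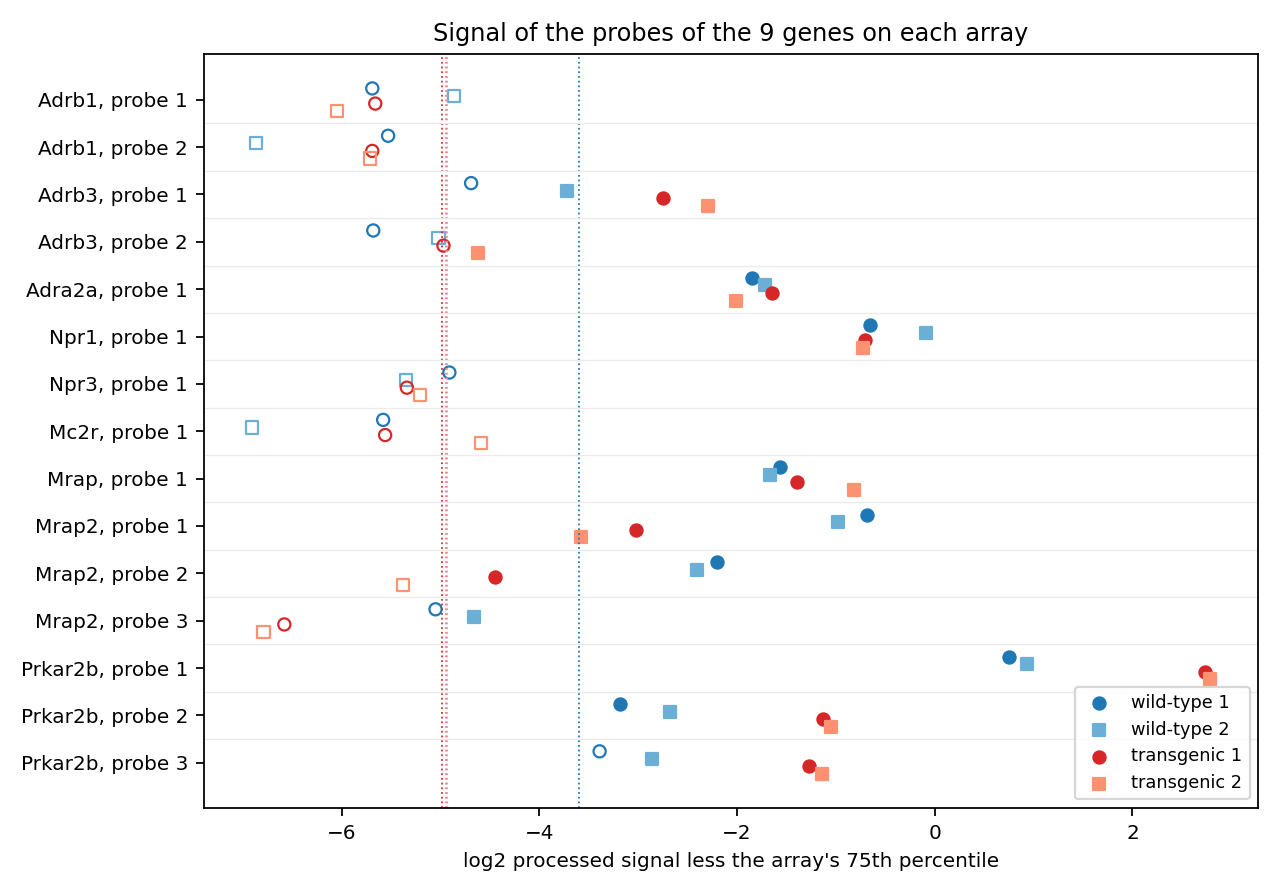
Signal of the 15 probes on each array, as log2 processed signal less the array's 75th percentile (horizontal axis), 1 row per probe. Filled symbols are well above background, open symbols are not, and dotted lines mark each array's lowest signal well above background (-3.60 on wild-type array 1, -4.94, -4.98 and -4.93 on wild-type array 2 and transgenic arrays 1 and 2). The wild-type and transgenic arrays separate in opposite directions at Mrap2 and Prkar2b.

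Mrap2 was lower on both arrays labelled transgenic. The Mrap2 product is an accessory protein that binds melanocortin receptors and modulates their signalling. At probe 1 the log2 signal was -0.68 and -0.98 on the wild-type arrays and -3.02 and -3.58 on the transgenic arrays, from processed intensities of 149.7, 169.0, 43.6 and 29.3. The probe was well above background on all 4 arrays, and both transgenic arrays lay below both wild-type arrays. The difference was -2.47 ± 0.27 (SE, n = 2 and 2; 95% interval -3.14 to -1.80), a 5.54-fold lower signal (3.48 to 8.81), and ranked 40th from the lowest of the features tested. Normexp background correction with an offset of 50 brought the difference to -1.37, and to -1.26 with quantile normalization. Mrap2 was not called when limma's intensity trend was left out (limma adjusted p = 0.0879), and neither was any other feature. Without transgenic array 2 the difference was -2.19 and Mrap2 was no longer called.

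The other Mrap2 probes were dimmer and moved the same way. Probe 2 read -2.20 and -2.40 on the wild-type arrays and -4.45 and -5.38 on the transgenic arrays, the last of these not above background. With that array set to its lowest signal above background, probe 2 was 5.23-fold lower on the transgenic arrays (-2.61 ± 0.39, SE, as read). Probe 3 was above background on 1 array, wild-type array 2, so that its values (-5.05, -4.66, -6.58 and -6.79 in the same order of arrays) carry no measured fold. In RNA of a sorted population, fewer cells that express a gene and less RNA per cell cannot be told apart.

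Mrap, the accessory protein that carries the corticotropin receptor to the cell surface, was present in both groups. Its log2 signal was -1.56 and -1.67 on the wild-type arrays and -1.39 and -0.82 on the transgenic arrays. The groups did not overlap, by a gap that was smaller than the distance between the 2 transgenic arrays. The difference was 0.51 ± 0.24 (SE; 95% interval -0.08 to 1.11), 1.42-fold, and it was not called. Mc2r, the corticotropin receptor itself, was not well above background on any array, with log2 signals of -5.58, -6.91, -5.56 and -4.59 in the order wild-type 1 and 2, transgenic 1 and 2.

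Prkar2b was higher on both arrays labelled transgenic. It encodes the type II beta regulatory subunit of the cyclic AMP-dependent kinase, a form abundant in fat and brain. At probe 1 the log2 signal was 0.75 and 0.93 on the wild-type arrays and 2.73 and 2.79 on the transgenic arrays, from processed intensities of 403.3, 636.2, 2353 and 2424. Each group was tight, and the gap between the groups was wider than the distance between the arrays of either. The difference was 1.92 ± 0.11 (SE; 95% interval 1.65 to 2.19), 3.78-fold (3.15 to 4.55), and ranked 254th from the highest. Probe 2 gave 1.84 ± 0.23 and probe 3 gave 1.92 ± 0.24 (SE), with signals of -3.18, -2.68, -1.13 and -1.05 at probe 2 and -3.39, -2.86, -1.27 and -1.14 at probe 3, which was not above background on wild-type array 1. The 3 probes thus showed the same direction and nearly the same size along 3 stretches of the transcript. In the 4 fits that left out 1 array the Prkar2b difference lay between 1.83 and 2.01. The lone array of a group is there assumed to vary like the other group. Prkar2b was not called when limma's intensity trend was left out (limma adjusted p = 0.0636), and neither was any other feature.

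Adrb3, the beta-3 adrenergic receptor through which catecholamines act on rodent fat cells, was near the lower end of what the arrays measured. At probe 1 the log2 signal was -4.69 and -3.72 on the wild-type arrays and -2.75 and -2.29 on the transgenic arrays. It was well above background on both transgenic arrays and on 1 of the 2 wild-type arrays, and the groups did not overlap. The difference of the signals as read was 1.69 ± 0.41 (SE, 95% interval 0.66 to 2.72), which includes the value below background. With that value set to the lowest signal above background, the transgenic arrays were 2.21-fold higher. Adrb3 was not called. The difference was 0.40 with normexp and 0.60 with normexp and quantile normalization. Without wild-type array 2 it was 2.17 and called, against the wild-type array that was below background. Probe 2, within the same transcript, was above background on transgenic array 2 alone, and read -5.68, -5.02, -4.97 and -4.62 in the order wild-type 1 and 2, transgenic 1 and 2.

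Adrb1, the beta-1 adrenergic receptor, was not well above background on any array at either of its probes, whose log2 signals ran from -6.87 to -4.86. No difference was detectable at that signal. Adra2a, the α2A receptor that restrains lipolysis through the inhibitory G protein, was well above background on all 4 arrays. Its log2 signal was -1.85 and -1.72 on the wild-type arrays and -1.65 and -2.01 on the transgenic arrays. The groups overlapped, and the difference was -0.05 ± 0.21 (SE), with a 95% interval from -0.57 to 0.48.

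Npr1, the guanylyl cyclase that atrial natriuretic peptide binds, was well above background on all 4 arrays. Its log2 signal was -0.65 and -0.09 on the wild-type arrays and -0.71 and -0.73 on the transgenic arrays. Wild-type array 2 stood above the other 3, which lay close together. The difference was -0.35 ± 0.21 (SE; 95% interval -0.89 to 0.19) and was -0.07 without wild-type array 2, and Npr1 was not called. Its probe spans 494 bases of mm9 at chr3:90259171-90259664, for 60 probe bases, so that it crosses an intron. Npr3, the natriuretic peptide clearance receptor, was not well above background on any array, with signals of -4.91, -5.35, -5.34 and -5.21 in the order wild-type 1 and 2, transgenic 1 and 2.

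**Figure D2:**
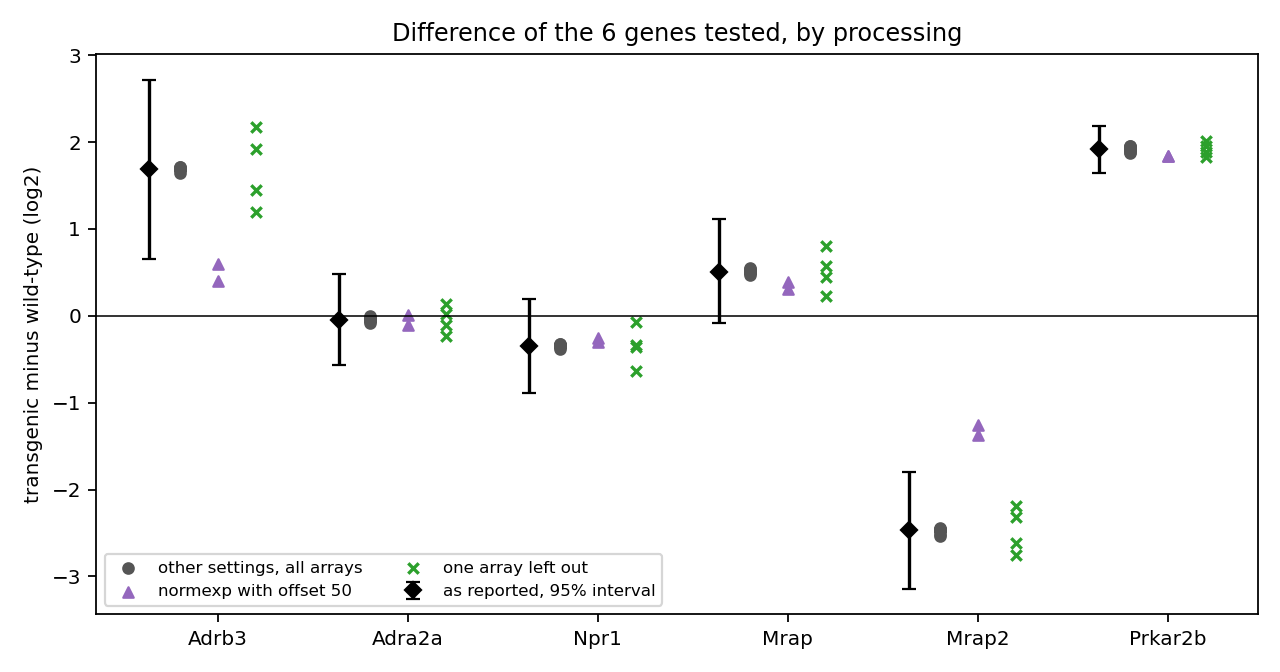
Transgenic minus wild-type difference (log2, vertical axis) of the 6 genes tested, as reported with its 95% interval and under each other processing. Mrap2 stayed below 0 and Prkar2b above 0 in every fit shown, Adrb3 fell to 0.40 and Mrap2 to -1.26 at their smallest with normexp, and Adra2a lay on both sides of 0.

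The genes with the pattern nearest to Mrap2 over the 4 arrays were named by the smallest Euclidean distance between signals less each gene's own mean, among 11837 features (11838 for Adrb3) well above background on all arrays whose symbol was matched through RefSeq and is no provisional name. They were Sult1e1 (distance 0.31), Myoc (0.37), Il18r1 (0.37), Shisal1 (0.58) and Gprasp2 (0.60). Sult1e1 encodes estrogen sulfotransferase, and read 4.39 and 4.05 on the wild-type arrays and 2.08 and 1.84 on the transgenic arrays. Il18r1, a subunit of the interleukin-18 receptor, read 4.18, 3.87, 2.28 and 1.38 in the same order. Gprasp2, which encodes a protein that sorts G protein-coupled receptors, read -0.12, -0.33, -1.89 and -2.32. All 5 were lower on both transgenic arrays, as their choice by likeness to Mrap2 entails. The nearest gene to Prkar2b was Cx3cl1, a membrane-bound chemokine, at 0.10. Cx3cl1 read -3.33 and -3.24 on the wild-type arrays, and the lowest signal above background on wild-type array 1 was -3.6. The nearest genes to the others tested were Hpca for Adrb3 (0.09), Sap25 for Adra2a (0.03), Tnxb for Npr1 (0.04) and Ifit3 for Mrap (0.06). The match to Adrb3 used its value below background on wild-type array 1. With 4 values per gene and 11837 candidates, close patterns can arise by number alone, so these pairings are a description only.

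**Figure D3:**
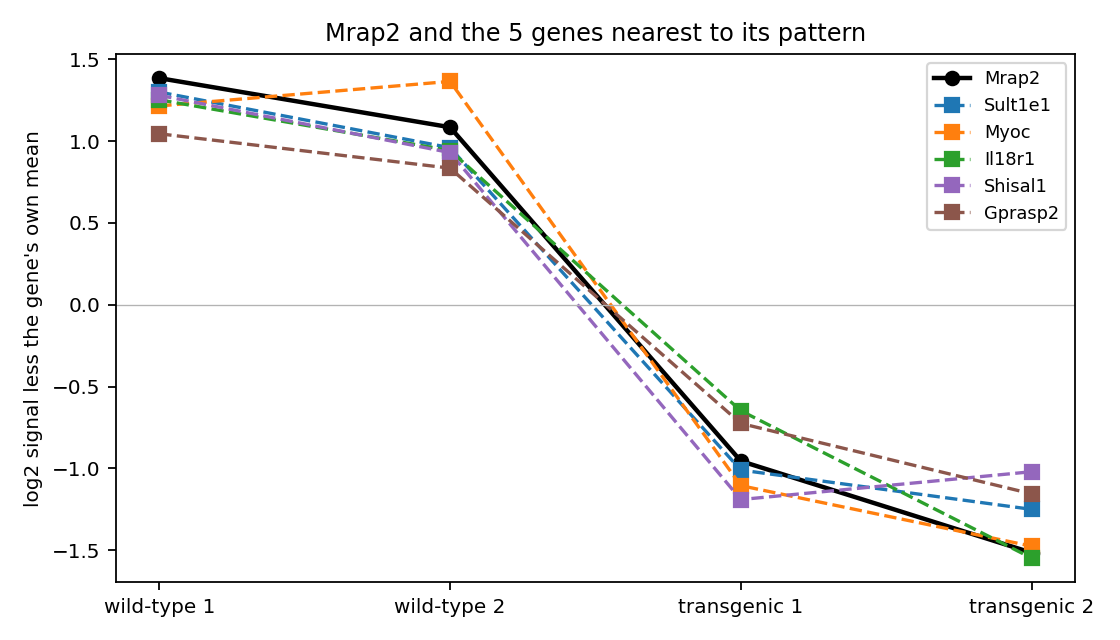
Log2 signal less each gene's own mean over the 4 arrays (vertical axis) for Mrap2 and the 5 genes nearest to it, by array. All 6 lines drop from the wild-type to the transgenic arrays, and Gprasp2, at a distance of 0.60, drops less than Mrap2.

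The rest of the pathway was followed in 11 lists of 152 genes, of which 120 were tested. Of these, 13 were called higher and 6 lower on the arrays labelled transgenic (15.8%), and the median difference was 0.00. Over all features 1.73% were called with a median of -0.016. The lists were chosen with earlier results of these data known, so the 2 shares are set side by side as a description only. Of the genes tested, 14 entered through the transgenic arrays alone, among them 2 of the 13 called higher (Gng2 and Rgs5), and 0 through the wild-type arrays alone, so genes admitted on 1 group only came from the transgenic side. The count was 10 with quantile normalization or a median shift, 4 without transgenic array 1, 3 without transgenic array 2 and 37 without wild-type array 2. Fabp4, Gucy1a1 and Pde2a passed in each of the 4 fits that left out 1 array, while the other genes called failed in at least 1 of them. With quantile normalization Gucy1b1, Ptger4, Ptger3, Pakap, Pde1a, Pde7a, Gprasp1, G0s2 and Nr4a2 no longer passed, and all kept their direction. With a median shift the same genes failed apart from Ptger3, and Crtc3 and Hilpda failed too. All adjusted p-values are from limma over all features.

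Among the other adrenergic receptors 0 of 5 tested were called, and the median was -0.86. Adra1d had the smallest p, with a difference of -0.90 ± 0.23 (SE, adjusted p = 0.134). Among the other melanocortin genes 0 of 5 tested were called, and Atrn, an attractin that takes part in agouti signalling, had the smallest p (-0.24 ± 0.10, adjusted p = 0.280).

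Among the other natriuretic and cyclic GMP genes, 2 of 10 tested rose and none fell. They were the subunits of soluble guanylyl cyclase, the receptor of nitric oxide. Gucy1a1 read 0.17 and 0.43 on the wild-type arrays and 2.26 and 2.17 on the transgenic arrays (1.92 ± 0.13, adjusted p = 0.0162). Gucy1b1 differed by 1.62 ± 0.20 (adjusted p = 0.0368). Of 12 other receptors that raise cyclic AMP, 2 rose, the prostacyclin receptor Ptgir (1.74 ± 0.19, adjusted p = 0.0283) and the prostaglandin E receptor Ptger4 (2.20 ± 0.33, adjusted p = 0.0498). Of 7 receptors that lower it, 1 rose, the prostaglandin E receptor Ptger3 (1.38 ± 0.20, adjusted p = 0.0497).

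Of 15 G protein and adenylyl cyclase genes, 1 rose. It was Gng2, a G protein gamma subunit, which did not clear the background on either wild-type array (adjusted p = 0.0280). With the wild-type arrays set to no less than their lowest signal above background, Gng2 was 3.40-fold higher on the transgenic arrays. Of 18 other kinase subunits, inhibitors and anchors, 1 rose, the anchoring protein Pakap (1.72 ± 0.24, adjusted p = 0.0458). The other regulatory subunits, named after their values were seen, did not pass: Prkar1a differed by -0.09 ± 0.10, Prkar2a by 0.07 ± 0.17 and Prkar1b by -0.90 ± 0.19. Of 14 phosphodiesterases, Pde2a rose (1.49 ± 0.10, adjusted p = 0.0162), and Pde1a (-0.85 ± 0.12, adjusted p = 0.0477) and Pde7a (-0.81 ± 0.12, adjusted p = 0.0498) fell. Of 12 desensitisation genes, 1 rose and 2 fell. Rgs5, a brake on G protein signalling, did not clear the background on either wild-type array and, with those arrays set likewise, was 4.91-fold higher (adjusted p = 0.0262). Gprasp2 fell by 1.88 ± 0.21 (adjusted p = 0.0295) and Gprasp1 by 0.76 ± 0.11 (adjusted p = 0.0456). With normexp Gng2 (0.56) and Rgs5 (0.87) no longer passed, whereas with normexp and quantile normalization both did (0.76 and 1.05).

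Of 10 lipolytic effectors, 3 rose and 1 fell. Fabp4, the fatty acid carrier of fat cells, read 4.24 and 4.48 on the wild-type arrays and 6.55 and 6.65 on the transgenic arrays, a difference of 2.24 ± 0.11 (adjusted p = 0.0128). G0s2 (0.82 ± 0.11, adjusted p = 0.0424) and Hilpda (0.72 ± 0.09, adjusted p = 0.0374), both inhibitors of the lipase Pnpla2, also rose, and the monoglyceride lipase Mgll fell by 0.79 ± 0.08 (adjusted p = 0.0278). The triglyceride lipase Pnpla2 (-0.20 ± 0.13, adjusted p = 0.455), the hormone-sensitive lipase Lipe (0.65 ± 0.25, adjusted p = 0.253) and the droplet coat protein Plin1 (2.30 ± 0.38, adjusted p = 0.0591) did not pass, and were named after their values were seen. Lipe cleared the background on only 1 wild-type array. With the wild-type arrays set to no less than their lowest signal above background, Lipe was 1.53-fold higher. Of 12 genes listed for the transcriptional response to cyclic AMP, mediators included, Nr4a2 rose (1.37 ± 0.19, adjusted p = 0.0449). The coactivator Crtc3, a mediator, fell by 0.69 ± 0.09 (adjusted p = 0.0368).

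**Figure D4:**
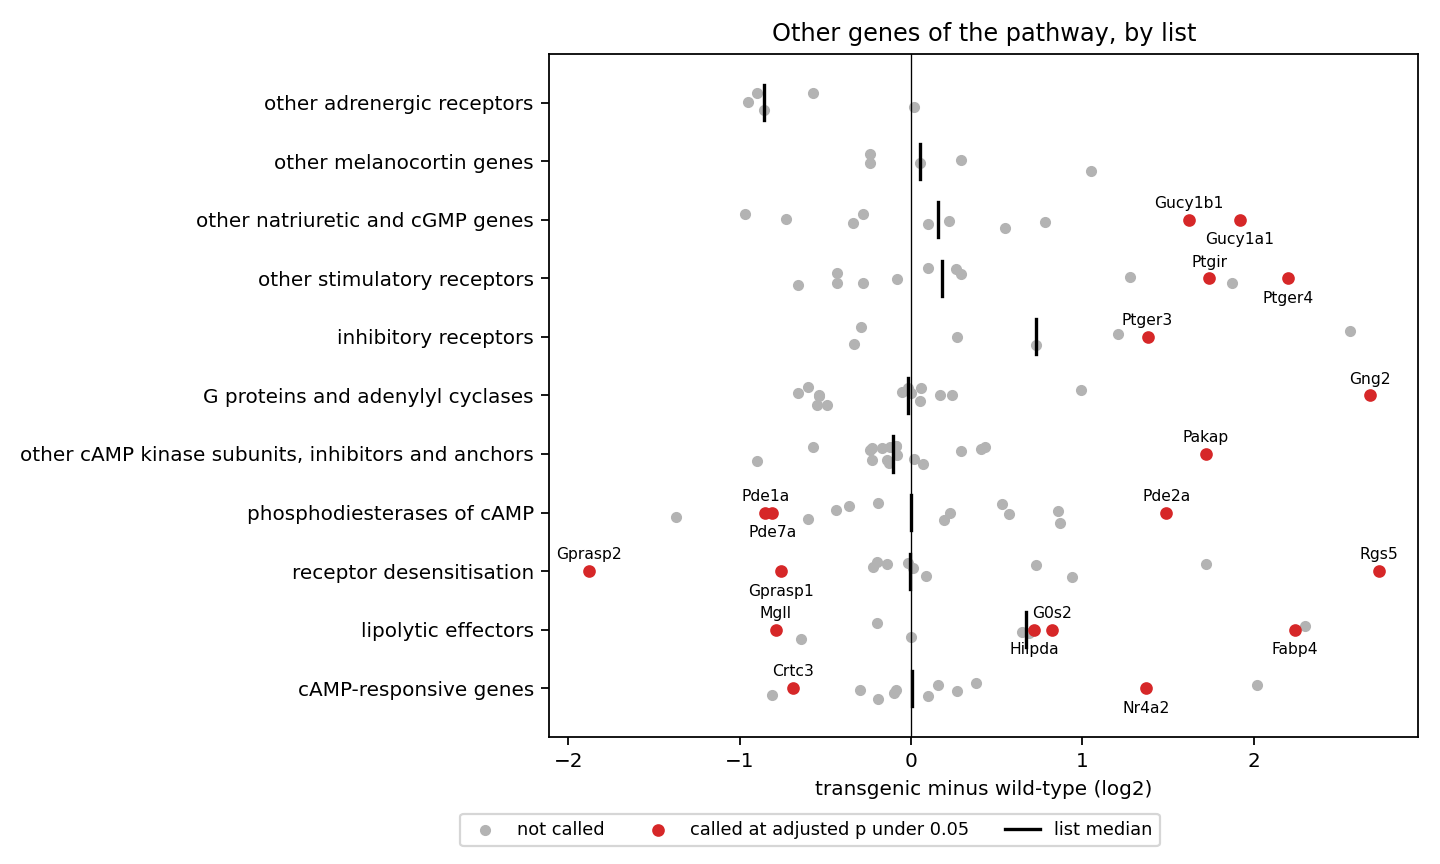
Transgenic minus wild-type difference (log2, horizontal axis) of each gene tested in the 11 lists, with 1 point per gene and a bar at each list's median. Points called are named: 13 lie above 0 and 6 below, and no list of adrenergic or melanocortin genes holds one.

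Markers of other cell types moved with the groups. Each sum below is weighted toward the brightest genes of its list and is no level of the list as a whole. Named after their values were seen, the brightest were Car3 (mature adipocyte), Csf1r (macrophage), Cox7a1 (brown and beige adipocyte) and Krt19 (mesothelial). Summed signals of mature adipocyte markers were 4.63 and 6.68 times the 75th percentile on the wild-type arrays and 15.0 and 19.6 times on the transgenic arrays, with 0 of 8 genes tested called, a median difference of 1.65, 4 of the 8 tested through the transgenic arrays alone, and leptin (Lep) not above background on any array. Macrophage markers summed to 9.81 and 7.53 against 14.9 and 15.7, with 5 of 9 called higher and Cd163 not above background. Of those 9 genes 5 had entered through the transgenic arrays alone, among them 3 of the 5 called (Lyz2, Mrc1 and Ptprc), and the other calls were Cd74 and C1qb. Smooth muscle and pericyte markers summed to 3.53 and 4.41 against 10.1 and 9.47, with 3 of 7 called higher, Acta2, Notch3 and Rgs5. Rgs5 is thus in both a pathway and a marker list. Endothelial markers summed to 22.8 and 18.3 against 19.2 and 18.2, with 1 of 10 called, Egfl7, which was higher. Their median difference was 1.34, with 8 of the 10 above 0 and Kdr (-0.28) and Tek (-0.51), named after their values were seen, below it, and 4 of the 10 had entered through the transgenic arrays alone. Schwann cell markers summed to 8.70 and 8.26 against 11.7 and 12.8, with Ngfr higher and Mbp lower among 5 tested, and Erbb3 and Cdh19 among those not above background. Brown and beige adipocyte markers summed to 6.13 and 4.17 against 3.22 and 3.58 with 0 of 3 called, and Ucp1 and Elovl3 not above background. Mesothelial markers summed to 3.75 and 4.00 against 2.40 and 2.30, with 1 of 2 called lower, Krt19, and Msln and Upk3b among the 4 not above background. The part of these cell types in the differences of Prkar2b, Mrap2, Adrb3 and the pathway genes was not tested.

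**Figure D5:**
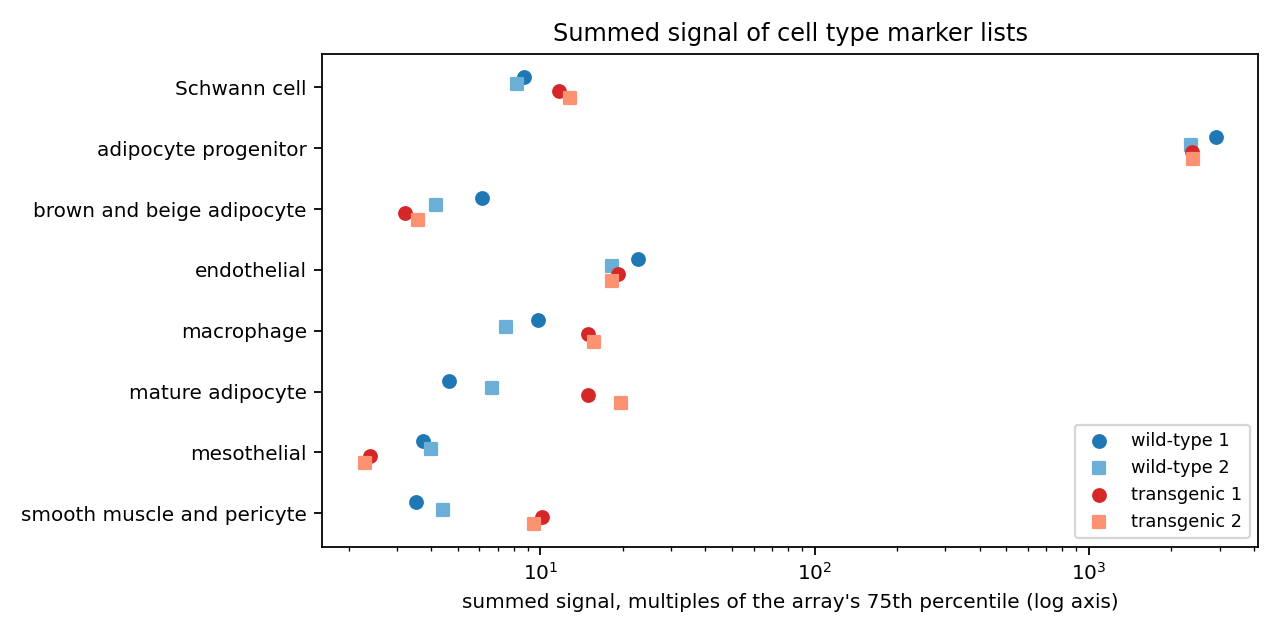
Summed signal of 8 marker lists on each array, in multiples of the array's 75th percentile (log axis). Each sum is weighted toward the brightest genes of its list. Sums of the Schwann cell, macrophage, mature adipocyte, and smooth muscle and pericyte lists are higher on both transgenic arrays, and the adipocyte progenitor list lies between 2358 and 2905 on all 4.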

How the data were processed

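RNA of 4 samples was hybridised to one-colour Agilent arrays (design 028005, mm9) scanned with Feature Extraction 10.7.3.1, per the file headers. The authors deposited processed signal intensity per spot, background-corrected by that software, and a value table in log2 units; per comparison with the scanner files, that table is centred on each probe's median (r at least 0.9998). The 4 arrays shared 1 slide and 1 scan time. All values here were computed from the scanner files: control spots and outlier flags were left out (56 probes lack a value on some array), log2 intensity was shifted by each array's 75th percentile over spots, and spots of a probe were averaged. Probes took current RefSeq symbols through their transcript accession (26582 of 55681; 29099 kept the design's name).

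Each gene was represented by its brightest probe on average, and a test was made where the probe cleared the background on all arrays of at least 1 group. limma 3.58.1 (R 4.3.3) with an intensity trend, 2 residual and 3.34 prior degrees of freedom and Benjamini-Hochberg adjustment gave differences, SEs and 95% intervals; the script was tested on simulated data. With 2 arrays a group, an exact permutation test cannot go below p = 0.333. Depth has no count on arrays, and their number limits the precision. Where a gene was not above background on all arrays of a group, its fold took the mean of the bright group. This was set against each dim array's lowest signal well above background, or the probe's own signal where higher. Such a fold is no strict lower bound, because a signal can lie above that lowest signal and still not clear the background. Prkar2b probe 3 read -3.39 on wild-type array 1, where the lowest was -3.6.

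The 9 genes and all lists were chosen with earlier results of these data known. Taking the percentile over spots, and keeping probes named only by a genome region apart, followed an earlier processing of these data and was settled after the counts of calls under other choices had been seen; those other choices are among the alternatives. From each pathway list the called genes were named, at most 4 by smallest p, or else the gene with the smallest p, beside genes nearest in pattern to the 6 tested and cell type marker lists. Exceptions are marked. Of the lists, Akap2 is Pakap and Asip is a (agouti) in RefSeq. The labels do not say that replicate numbers pair the samples, and no pairing was used in the main fit. Deviations of same-numbered arrays correlated at r = 0.003, which cannot settle whether samples were paired, because each group gives a single difference.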

Additional observations from a re-analysis of the deposited data

How the results depend on the processing

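Mrap2 was lower and Prkar2b higher under each of the 17 alternatives, with Mrap2 between -2.54 and -2.44 in those with all 4 arrays, apart from normexp (-1.37) and normexp with quantile normalization (-1.26). Leaving out 1 array moved Mrap2 between -2.75 and -2.19, the number of the 9 genes called between 1 and 3, the features called between 90 and 3998 and the pathway genes called between 3 and 37. Without the intensity trend limma called 0 features, 0 of the 9 genes and 0 pathway genes, with 4124 features at an unadjusted p under 0.05 (4660 with the trend, 423 called). With no filter 695 features were called, and with the replicate number as a block (replicate block) 774, of which 2 of the 9 genes. Pathway genes called were 10 with quantile normalization, 10 with a median shift and 12 with normexp and quantile normalization, against 19. Calls were higher on the transgenic arrays in 56.0% as reported, but in 64.3% with quantile normalization, 49.7% with a median shift, 49.8% with normexp, 65.2% with normexp and quantile normalization and 46.8% with a filter on all 4 arrays, which also leaves Adrb3 untested. That share also turned with single arrays: 81.6% without transgenic array 2, 63.3% without transgenic array 1, 39.0% without wild-type array 1 and 37.6% without wild-type array 2. No filter moved the median of all features to -0.199. Chosen after seeing the data were the percentile over probes (456 called), every probe as a feature (515) and probes of one region merged (511). The cause of these shifts was not tested. With 2 arrays a group and dim probes for Adrb1, Adrb3, Npr3 and Mc2r, differences in those receptors could not be resolved.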
